A study of Mus musculus with 23 samples.

Results

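The developmental pluripotency associated genes Dppa2, Dppa3, Dppa4 and Dppa5 were followed through undifferentiated mouse embryonic stem cells (ESCs), the ckit+Sca-1+ cells derived from them in 3 culture systems, and native LKS cells (lineage negative, ckit+Sca-1+) of bone marrow (BM) and fetal liver (FL). Members were the probes of an Illumina mouse bead array that carry one of the 4 gene symbols. Of the 4 genes, 3 had a probe, among 17973 genes measured: Dppa3 had 1 probe, Dppa4 had 3 and Dppa5 had 2, or 6 of 25697 probes. Dppa2 had no probe and has no value here. Dppa5 is the array's name for the gene now called Dppa5a. The set was chosen by the log2 levels of these genes in the 6 groups, which were already known, so all their levels and differences are a description and carry no test.

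Dppa3, also called Stella or Pgc7, is made in oocytes, early embryos, ESCs and primordial germ cells, and in the mouse it binds Uhrf1, the factor that brings the maintenance methyltransferase Dnmt1 to DNA, and so guards unmethylated and methylated states in the early embryo. Dppa2 and Dppa4 are small nuclear proteins with a SAP domain that work as a pair on chromatin, and in mouse ESCs they help to open genes of the cleavage-stage embryo and to keep bivalent promoters free of DNA methylation. Dppa5a, also called Esg1, is an RNA-binding protein with a KH domain and one of the most abundant transcripts of mouse ESCs. All are used as marks of pluripotent cells and are silent in blood cells.

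Total RNA was profiled on 23 arrays. Undifferentiated R1 ESCs at day 0 (undiff, 3 arrays) had been expanded on mouse embryonic fibroblasts. The same ESCs were grown as embryoid bodies to day 7 in Static flasks (3 arrays), in stirred Spinner flasks (3 arrays) or in Synthecon rotating vessels (8 arrays), and ckit+Sca-1+ cells were sorted without a lineage depletion. BM LKS cells came from mice of 10 weeks by the labels (3 arrays) and FL LKS cells from embryos of day 15 (3 arrays), both depleted of lineage-positive cells before the same sort. All samples carried the strain label 129X1/SvJ x 129S1, no group carried a genetic change or a drug, and R1 is a single ESC line. Spinner and Synthecon together are called dynamic culture, with the mean of the 2 groups as its level, and BM and FL together native. A level is the log2 quantile-normalized signal, which had the same distribution on every array, with a median of 6.40, and a probe counted as above background at a detection p-value under 0.01. In sorted bulk samples, fewer cells of a type and less RNA per cell cannot be told apart.

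Several features of the arrays touch every value below. Between 9785 and 11204 probes were above background per array. The 8 Synthecon arrays fell into 2 sets of near repeats, the odd and the even replicate numbers: arrays of 1 set on 1 slide differed by a median of 0.0612 to 0.0662 (log2, over 1488 bright probes), against 0.154 to 0.168 between the sets on 1 slide. Across slides the median was 0.182 to 0.200 within a set and 0.240 to 0.259 between the sets, so that arrays of 1 set on different slides differed more than arrays of both sets on 1 slide, and it was 0.0769 to 0.393 within the other groups. Each set therefore entered as 1 sample, so that Synthecon has n = 2 and the fit 17 samples. The arrays lay on 3 slides, with undiff, Static 1 and 2, Spinner 1 and 2 and BM 1 on slide 1, Spinner 3, BM 2 and 3, all FL and Synthecon 1 and 2 on slide 2, and Static 3 and Synthecon 3 to 8 on slide 3. The 3 Static arrays were unlike each other: the summed intensity of 9 core pluripotency genes was 36512 in Static 1, 6291 in Static 2 and 1759 in Static 3, against 39222 to 43960 in Spinner. These intensities were not normalized between arrays. In Synthecon the sum was 43035 and 31963 on slide 2 but 13238 to 16323 on slide 3, the slide of Static 3. Blood markers checked the native labels, with 12 of 14 above background on every BM array and 11 of 14 on every FL array. Ptprc, which encodes the pan-leukocyte antigen CD45, was above background on every BM array and 2 of 3 FL arrays. It was above background on no Static, Spinner or Synthecon array. Not every marker separated the cells: Cd48 was above background on no native array, and Ly6a was higher in dynamic than in native cells, by 1.82.

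Dppa5 was at or near the top of the array in undifferentiated cells and in dynamic culture. By its brighter probe its level was 14.60, 14.74 and 14.76 in the 3 undiff arrays. It was 14.85, 14.96 and 14.76 in Spinner and ran from 14.92 over a median of 14.99 to 15.05 in Synthecon. On these arrays and on Static 1 the 2 probes of Dppa5 ranked between 1 and 44 of all probes, and their intensity was 80.4% to 100% of the brightest probe of the same array, so that differences among these arrays lie where the scale of the array ends. The Static arrays spread over a wide range, with 14.85 in Static 1, 12.62 in Static 2 and 11.37 in Static 3, where the rank was 1176. As intensities, not normalized between arrays, the Static values were 30994, 7050 and 1993.

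The second probe of Dppa5 gave the same order of arrays in Static culture, with 14.95, 12.89 and 11.34. Both probes correlated at r = 0.994 over the 17 undiff and ESC-derived arrays, a value that rests mainly on Static 2 and Static 3. Static culture had a mean of 12.95 ± 1.76 (SD, n = 3) by the brighter probe, dynamic culture 14.92 and undiff 14.70 ± 0.09 (SD, n = 3). The difference of Static from dynamic was -1.97 ± 0.50 (log2, SE of the fit across all probes) and -1.83 ± 0.52 by the second probe. Dynamic culture and Static 1 both lay at the end of the scale, so these means have no known limit. Only for Static 2 and Static 3 taken singly is the difference from dynamic culture a lower limit in size. The groups overlapped through Static 1, which lay among the dynamic arrays. Without Static 1 the difference was -2.92 and without Static 3 it was -1.18, and within slides it was -1.17 on slide 1 (Static 1 and 2 against Spinner 1 and 2) and -3.62 on slide 3 (Static 3 against Synthecon). Dynamic culture and undiff differed by 0.22 ± 0.50, which is less than the error.

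In native cells Dppa5 was at background with a single exception. The BM arrays read 6.17, 6.21 and 6.49 by the brighter probe, none above background. Of the FL arrays, FL 1 and FL 3 were not above background at 6.36 and 6.46, and FL 2 was, at 7.32 and with a detection p-value of 0.00125. The second probe of Dppa5 was above background on FL 2 alone as well, at 7.13. Of 21 other pluripotency genes, 5 were above background on FL 2 and 4 to 6 on the other native arrays. Klf2, Klf4, Klf5 and Zfp281 were above background on every native array, so this count says little about faint signals on FL 2. The source of the Dppa5 signal on FL 2 was not tested. The signal of Dppa5 on FL 2 was an intensity of 100.4, against 29124 to 32270 in Spinner. Folds over a group without a signal above background are lower bounds, set against the lowest signal above background on each array. Against BM the level of Dppa5 was at least 216-fold higher in undiff, at least 64.0-fold in Static, at least 241-fold in Spinner and at least 263-fold in Synthecon. Against FL, with FL 2 at its own signal, the bounds were 199, 58.9, 221 and 242 in the same order.

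**Figure D1:**
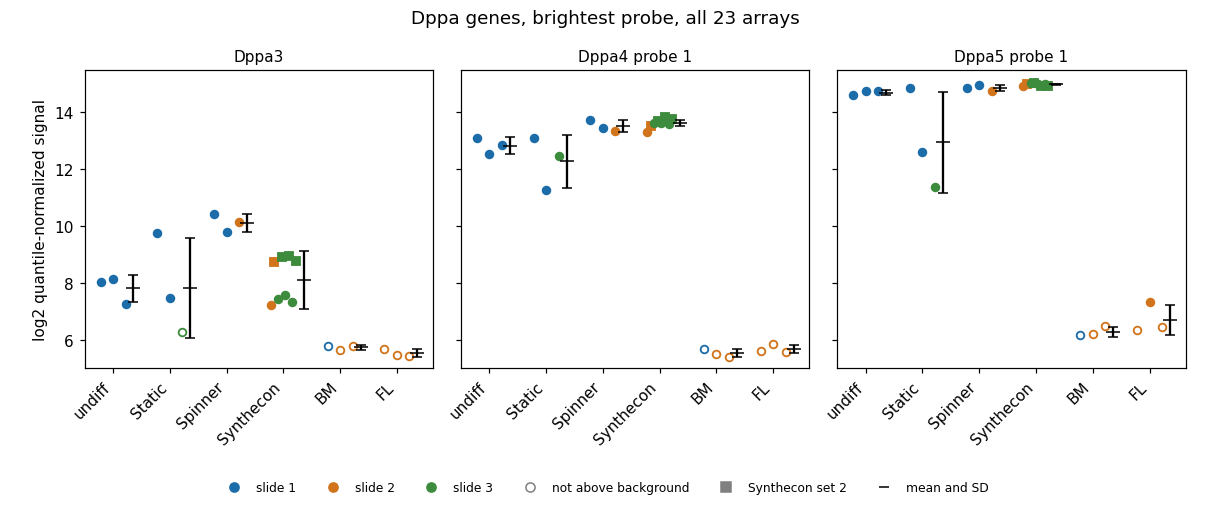
Log2 quantile-normalized signal of the brightest probe of Dppa3, Dppa4 and Dppa5 on all 23 arrays (points, coloured by slide, open where not above background), with the mean and SD of each group (Synthecon over its 2 sets of near repeats, squares marking the second set). Dppa5 sits near 15 in undiff, Spinner and Synthecon and spreads from 14.85 to 11.37 in Static, Dppa4 is at 11.26 or more on every undiff and ESC-derived array, Dppa3 is highest in Spinner, and native arrays are at background except FL 2 for Dppa5.

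Dppa4, the partner of Dppa2, was high in all undiff and ESC-derived arrays and lowest among them in Static culture. By its brightest probe, undiff read 13.12, 12.53 and 12.85. Static read 13.11, 11.26 and 12.48. Spinner read 13.75, 13.45 and 13.34, and Synthecon ran from 13.32 over a median of 13.63 to 13.83. Every Static array therefore lay below every dynamic array, though Static 1 was close, at 13.11 against 13.32 for the lowest of them. The lowest Static array was Static 2, whereas for Dppa3 and Dppa5 it was Static 3. The mean was 12.28 ± 0.94 (SD, n = 3) in Static, 13.51 ± 0.21 (n = 3) in Spinner, 13.63 ± 0.12 (n = 2) in Synthecon and 12.83 ± 0.29 (n = 3) in undiff. Static differed from dynamic by -1.29 ± 0.29 and from undiff by -0.55 ± 0.32, and without Static 2 these were -0.78 and -0.04.

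The middle probe of Dppa4 gave a like order of groups at a lower signal. It read 9.83, 9.08 and 9.61 in undiff and 9.30, 8.10 and 8.43 in Static. It read 10.24, 10.33 and 10.00 in Spinner and from 10.25 to 10.53 in Synthecon. Again all Static arrays were below all dynamic arrays, with a difference of -1.67 ± 0.23, and all dynamic arrays were above all undiff arrays. The brightest and the middle probe correlated at r = 0.922 over the 17 undiff and ESC-derived arrays.

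The dimmest probe of Dppa4 behaved otherwise, and its reading went with the slide. It correlated with the brightest probe at r = 0.183 and with the middle probe at r = 0.345. On slide 2 it read 7.62 and 7.53 in Synthecon 1 and 2, both above background, and on slide 3 it read 6.09 to 6.39 in Synthecon 3 to 8, none above background, although these arrays are near repeats of the same sets. Of the other arrays, Spinner read 7.84, 7.72 and 7.29, all above background, undiff read 7.62, 6.73 and 7.33 with 2 above background, and Static read 7.06, 6.15 and 5.73 with 1 above background. Before normalization the middle probe was also brighter on slide 2, at intensities of 1440 and 1291 against 584 to 627 on slide 3, while its normalized levels lay within 10.25 to 10.53. Which transcript each probe reads was not given in the sources used here, and the part of the slide in the reading of the dimmest probe was not tested.

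**Figure D2:**
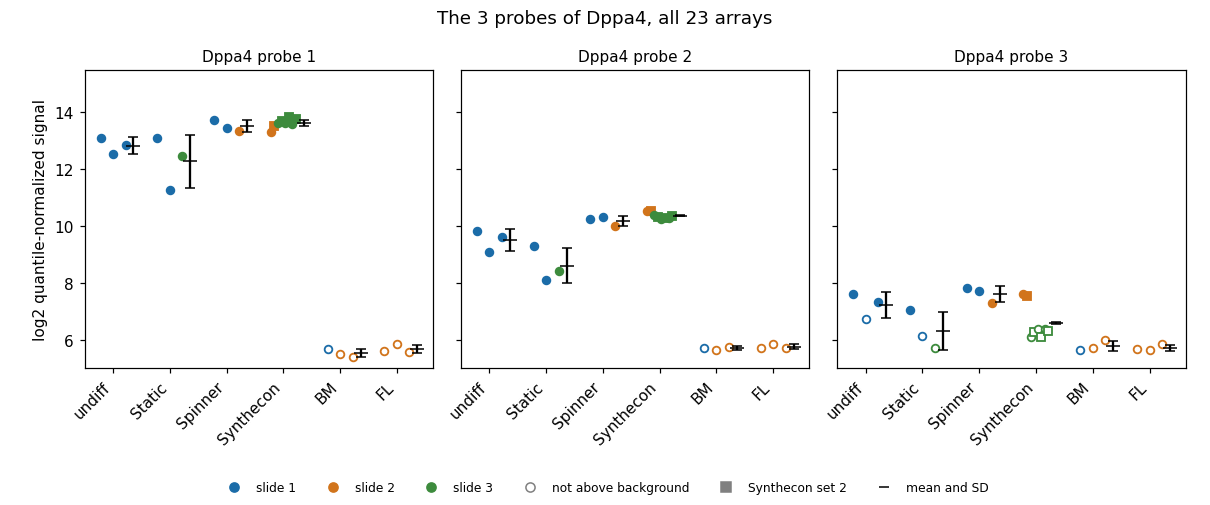
Log2 quantile-normalized signal of the 3 probes of Dppa4 on all 23 arrays (points coloured by slide, open where not above background, mean and SD per group). The brightest and the middle probe place every Static array below every dynamic array, while the dimmest probe reads 7.53 to 7.62 in Synthecon on slide 2 and 6.09 to 6.39 on slide 3.

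Between dynamic culture and undiff, the direction for Dppa4 depended on the scaling. On normalized values dynamic was higher by 0.74 ± 0.29 at the brightest probe and 0.77 ± 0.23 at the middle probe, but -0.12 at the dimmest probe, and without normalization between arrays the brightest probe gave -0.17. That scaling moved the median of all genes by -0.21 in the same comparison. The median level of 6.40 lay below the lowest signal above background on any array, 6.67, so this shift gives no scale for a bright probe. For Spinner against undiff the sign held in both scalings, at 0.68 ± 0.32 with and 0.23 without normalization, and at 0.77 within slide 1. For Synthecon against undiff, which share no slide, it was 0.80 ± 0.36 with and -0.56 without normalization, where the median of all genes moved by -0.33.

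In native cells no probe of Dppa4 was above background on any of the 6 arrays, with 5.42 to 5.84 at the brightest probe. Its level there was exceeded at least 59.1-fold in undiff, at least 40.4-fold in Static, at least 94.7-fold in Spinner and at least 103-fold in Synthecon, against BM. Against FL the bounds were 59.7, 40.8, 95.7 and 104. By the middle probe they were smaller, from 3.16 in Static to 10.7 in Synthecon against BM, since that probe is dimmer and the bound starts from background.

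Dppa3 was highest in Spinner flasks. Undiff read 8.05, 8.13 and 7.28. Spinner read 10.43, 9.79 and 10.13. Every Spinner array was thus above every other array of the series, Static 1 being the nearest at 9.75. The other Static arrays read 7.47 and 6.28, the last not above background (detection p-value 0.0852), so that Static spanned nearly the whole range of the ESC-derived arrays, with a mean of 7.84 ± 1.76 (SD, n = 3). Synthecon split by its sets of near repeats, at 7.22, 7.43, 7.59 and 7.35 in the odd replicates and 8.74, 8.91, 8.95 and 8.77 in the even ones. The split was seen on slide 2, at 7.22 against 8.74, and on slide 3, at means of 7.46 and 8.88. As intensities Dppa3 was modest, from 841 to 1389 in Spinner and from 49.3 to 340 in Synthecon.

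The Spinner mean of Dppa3 was 10.11 ± 0.32 (SD, n = 3), undiff had 7.82 ± 0.47 (n = 3) and Synthecon 8.12 ± 1.02 (n = 2). Spinner exceeded undiff by 2.29 ± 0.59, and by 2.28 within slide 1 (Spinner 1 and 2 against the 3 undiff arrays). Spinner exceeded Synthecon by 1.99 ± 0.67, by 2.69 without normalization between arrays and by 1.35 with slide as a block in the fit. Synthecon differed from undiff by 0.30 ± 0.67, less than the error, by -0.72 without normalization and by 1.14 with slide as a block. Static differed from undiff by 0.02 ± 0.59 and from dynamic by -1.28 ± 0.54, with arrays that overlapped in both comparisons. Without Static 1 the difference from dynamic was -2.24 and without Static 3 it was -0.51. Within slides it was -1.49 on slide 1 and -1.88 on slide 3. In BM and FL the probe read 5.43 to 5.80 and was above background on no array, and the bounds against BM were 1.83-fold for undiff, 1.85-fold for Static (2 of 3 arrays above background), 8.98-fold for Spinner and 2.25-fold for Synthecon.

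The order of the groups therefore differed from gene to gene. For Dppa5 and for Dppa4 by its brightest probe, the means ran Synthecon, Spinner, undiff, Static, FL, BM. For Dppa3 they ran Spinner, Synthecon, Static, undiff, BM, FL. Arrays of neighbouring groups were apart between Spinner and Synthecon for Dppa3, between Spinner and undiff for Dppa4, and between the lowest ESC-derived or undiff group and the native groups for all 3 genes. All other neighbours in these orders overlapped by the brightest probes. By the second probe of Dppa5 every Spinner array lay below every Synthecon array, with means of 14.81 and 14.98 at the end of the scale. Between the genes the log2 levels correlated weakly to moderately over the 11 undiff and ESC-derived samples, at r = 0.564 for Dppa3 and Dppa4, 0.626 for Dppa3 and Dppa5 and 0.696 for Dppa4 and Dppa5, values that share the same arrays.

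Counted by their brightest probes, the members were not alike in how far the groups separated, and each count stands beside the share of all 17973 genes that did the same. Every Static array was below every dynamic array for 1 of 3 members (Dppa4), against 5.41% of all genes. Every dynamic array was above every undiff array for 1 of 3 (Dppa4), against 7.92%, and every Spinner array above every undiff array for 2 of 3 (Dppa3 and Dppa4), against 15.6%. Every dynamic array was above every native array for 3 of 3, against 12.7%, and every Static array above every native array for 3 of 3, against 12.1%. The members were chosen with these levels known, so nothing is read from the counts.

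The Static arrays were next set one by one against the mean of dynamic culture, since they spread so widely. In Static 1 the members were close to dynamic culture. Dynamic over Static was 1.05-fold for Dppa5, 1.38-fold for Dppa4 and 0.645-fold for Dppa3, which was higher in Static 1. For Dppa5 both lay at the end of the scale. Pou5f1, which encodes the core factor Oct4, stood at 1.14-fold and Nanog at 0.890-fold. In Static 2 the folds were at least 4.92 for Dppa5, whose dynamic level is at the end of the scale, 4.95 for Dppa4 and 3.12 for Dppa3, while Pou5f1 had 14.9, Nanog 6.64 and Esrrb, a nuclear receptor of naive pluripotency, 17.6. In Static 3 they were at least 11.7 for Dppa5, at least 5.36 for Dppa3, which was not above background there, and 2.13 for Dppa4 (3.60 by its middle probe), while Pou5f1 had 43.2, Nanog 34.9 and Esrrb 46.2. Dppa4 had an intensity of 4351 in Static 3, above background.

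**Figure D3:**
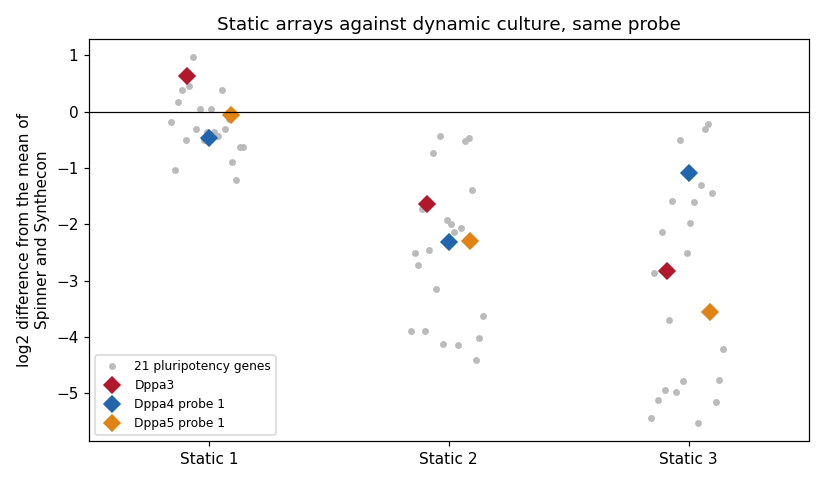
Log2 difference of each Static array from the mean of Spinner and Synthecon, same probe, for the brightest probes of Dppa3, Dppa4 and Dppa5 (diamonds) and for 21 pluripotency genes (grey points). In Static 1 the members lie within 0.63 of dynamic culture, in Static 2 between -1.64 and -2.31, and in Static 3 Dppa4 is at -1.09 and Dppa5 at -3.55. The values of Dppa5 are limited by the end of the scale in dynamic culture and in Static 1.

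The pluripotency genes around the members were taken as lists, tested with limma across all probes with Benjamini-Hochberg adjustment and called at an adjusted p under 0.05. Of 22 core and naive pluripotency genes 21 were measured, and in Static against dynamic culture 14 were lower and 0 higher, with a median of -1.90 against -0.02 over all genes, of which 8.49% were called lower and 7.2% higher. The core factors Pou5f1 (-3.18 ± 0.73, adjusted p = 0.00856), Utf1 (-3.12, 0.00478) and Nanog (-2.56, 0.0263) were lower, as were the naive genes Tcl1 (-3.59, 0.00118), Esrrb (-3.37, 0.00612), Fbxo15 (-3.14, 0.00309) and Zfp42 (-3.14, 0.00465). The fit took 1 spread per probe, pooled over all groups. The SD in Static was 2.69 for Pou5f1, 2.65 for Nanog and 2.64 for Esrrb. It was 0.17, 0.13 and 0.12 in Spinner and 0.31, 0.02 and 0.17 in Synthecon. These adjusted p-values are therefore not set against the spread of Static alone. The pairwise tests of the study's methods, listed in the last section, called 0 of the pluripotency genes after adjustment. Tcl1 and Utf1 were not above background on Static 3. Nr0b1, also among the 14 (adjusted p = 0.0220), was above background on no array of the series. The count of 14 was 9 without Static 2, 10 without Static 3 and 19 without Static 1.

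Markers of other cells moved along with this comparison. Of 8 fibroblast markers 5 had the higher level in Static flasks and 1, Thy1, the lower. These were 3 higher and 0 lower without Static 2 and 4 higher and 0 lower without Static 3, and the call of Thy1 was lost also without any 1 Spinner array, among others. The collagen Col3a1 (adjusted p = 0.000225) and the matrix proteoglycan Lum (0.00762) were above background on no dynamic array and at least 12.26-fold and at least 3.97-fold higher in Static culture. The collagen Col1a1 was at least 7.63-fold (0.000519, above background on 4 of 11 dynamic arrays) and the proteoglycan Dcn at least 3.17-fold higher (0.0284, on 2 of 11). Their summed intensity was 1321, 13254 and 1678 in Static 1 to 3, 841 to 5220 in undiff, 176 to 282 in Spinner and 40.3 to 351 in Synthecon, where 7 of 8 markers in Spinner and 5 of 8 in Synthecon were above background on no array. Of 14 blood progenitor markers 7 were higher and 0 lower, but 2 without Static 2 and 3 without Static 3. Among the 7 were the actin regulator Coro1a (2.95, 0.00720) and the blood transcription factor Gata2 (2.00, 0.00132, on no Spinner array above background). The blood transcription factors Tal1 (0.0192) and Lyl1 (0.00865), above background on no dynamic array, were at least 2.55-fold and at least 2.13-fold higher. The summed intensity of the 14 was 4249, 20966 and 14512 in Static 1 to 3. It was 3069 to 4092 in Spinner, 2718 to 8570 in Synthecon and 30172 to 66460 in native cells. Undiff 1 to 3 had 4217, 14712 and 4531, though 9 of the 14 were above background on no undiff array. Undiff 2 thus read close to Static 3 in this sum, but the sums were not normalized between arrays. Static 3 lay on slide 3, where the blood sum of Synthecon was 2718 to 5033, against 8570 and 4432 on slide 2. Both marker sums were lowest among the Static arrays in Static 1, where the Dppa levels were nearest to dynamic culture. The fibroblast sum of Static 1, on slide 1, was close to that in Static 3, on slide 3, where Dppa3 and Dppa5 were lowest. Undiff 2 had sums of 5220 and 14712 with Dppa5 at 14.74, at the end of the scale. The part of other cells in the Dppa differences was not tested.

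Against undiff, Static culture had 11 of the 21 pluripotency genes lower and 0 higher, where 7.19% of all genes were lower and 7.28% higher. The 11 were 3 to 7 without any 1 of undiff 1 to 3, Static 2 and Static 3, and 16 without Static 1. The members were at -1.75 ± 0.55 for Dppa5, -0.55 ± 0.32 for Dppa4 and 0.02 ± 0.59 for Dppa3. In dynamic culture against undiff 2 of the 21 were higher (Tcl1, a coactivator of Akt, at 2.30 and the growth factor Fgf4, on no undiff array above background, at least 1.41-fold) and 1 was lower (the RNA-binding protein Lin28a, at -1.98), beside 6.71% of all genes higher and 4.26% lower. Without normalization between arrays that split was 1 higher and 5 lower, without Static 1 it was 5 and 2, and 1 was higher without undiff 1, undiff 3 or either Synthecon set, with 0 lower without undiff 3. Against native cells 20 of 21 were higher in dynamic culture and 0 lower, where 21% of all genes were higher and 18.1% lower. The 20 include Nr0b1 and Prdm14, which were above background on no array of the series. All 4 comparisons use the same dynamic, Static, undiff and native samples in part, so their counts are not independent of each other.

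Dppa3 is known for its work on DNA methylation, and 6 of 9 genes of that machinery were measured. In Static against dynamic culture 2 were lower and 0 higher. Dnmt3l, the catalytically inactive partner of the de novo methyltransferases, was lower, at -4.26 ± 0.55 (adjusted p = 0.000161), at 11.15, 7.67 and 7.91 in Static 1 to 3 against 12.80 to 13.85 on every dynamic array. It was therefore below every dynamic array in Static 1 too, unlike Dppa3 and Dppa5. Dnmt3b, a de novo methyltransferase, was lower as well, at -1.13 (0.0238). Uhrf1, which Dppa3 binds, had means of 12.38 in Static, 12.84 in Spinner, 12.50 in Synthecon and 12.79 in undiff, and did not pass between Static, dynamic and undiff. Of the 6 genes 1 was lower without Static 2, Static 3, Spinner 2 or the first Synthecon set and without normalization between arrays, and without Static 1 there were 2 lower and 1 higher.

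Genes that DNA methylation keeps silent in somatic cells were mostly lower in Static culture where they passed. Of 16 germline genes of this kind 15 were measured, with 7 lower and 0 higher, and 6 remained in number without Static 2 and 6 without Static 3. The largest differences were those of Tex19.1, a germline gene also active in ESCs (-2.77, adjusted p = 0.00680), the RNA-binding protein Dazl (-2.67, 0.000285), the X-linked homeobox gene Rhox5 (-2.37, 4.0e-05) and the Tudor-domain kinase Stk31 (-1.52, 0.000942), with Dazl and Stk31 above background on 1 of 3 Static arrays. In dynamic culture against undiff 4 of the 15 were higher and 0 lower, and 2 without normalization between arrays. Rhox5 was higher by 1.81, Stk31, above background on 1 undiff array, at least 1.81-fold, and Dazl and Mov10l1, above background on no undiff array, at least 6.84-fold and at least 1.88-fold. Of 10 markers of primordial germ cells, where Dppa3 is a classical mark, 4 were lower in Static than in dynamic culture and 0 higher: Tfap2c (-2.14, 0.0252), Alpl (-1.97, 0.0189), Dnd1 (-1.67, 0.0341) and Ddx4, the Vasa helicase, which was above background on no Static and no Spinner array (0.0335) and has no bound on its fold. None of the 4 passed without Static 2 or without Static 3, where limma called 0 of the 10, and 0 were called without normalization between arrays. Without Spinner 1 or the second Synthecon set 1 passed, and without Spinner 2 it was 2. Tfap2c was at 12.91 in Static 1, among the dynamic arrays, and at 10.10 and 8.67 in Static 2 and 3, the order of arrays seen for Dppa5.

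Other KH-domain genes and genes of the oocyte's maternal complex, not all of them with a KH domain, were taken as 1 list. Of its 10 genes 8 were measured, 3 were lower in Static than in dynamic culture and 0 higher, with 3 also without Static 2 or Static 3 and 5 without Static 1. Ooep, which encodes a KH-domain protein and is the gene next to Dppa5a in the RefSeq annotation of mouse assembly GRCm38.p6, was lower, at -3.25 ± 0.68 (adjusted p = 0.00506). It read 13.08, 9.47 and 8.21 in Static 1 to 3 and 13.03 to 14.10 on the dynamic arrays, so that Static 1 again lay among them. Unlike Dppa5 it was not at the end of the scale in undiff, at 11.85 ± 0.27 (SD, n = 3) against 13.08 in Spinner and 13.94 in Synthecon. Khdc3, another KH-domain gene, was lower, at -1.86 (0.000998), and Nlrp14, above background on no Static array, was at least 1.37-fold higher in dynamic culture (0.00159). Of 6 genes of the primed epiblast 5 were lower and 0 higher, or 3 lower without Static 2, without Static 3 or without normalization between arrays, with Otx2 at -3.45 (0.00243) and Nodal at -1.82 (0.00928), while Pou3f1 and Fgf5, on no Static array above background, were at least 3.49-fold (0.000152) and at least 1.45-fold (0.00129) higher in dynamic culture.

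The nearest measured genes in the same annotation showed no common pattern around the members. Dppa3 lies between Gdf3 and Nanog with no other protein-coding gene before Nanog, and both neighbours were lower in Static than in dynamic culture, Gdf3, a TGF-beta family ligand, at -2.82 (adjusted p = 0.00390) and Nanog at -2.56 (0.0263). Beyond them Foxj2 was higher by 0.74 (0.00759), and Slc2a3 (-0.29, 0.753) and Apobec1 (0.04, 0.974) did not pass. Between Spinner and Synthecon the means were 10.98 and 10.74 for Gdf3 and 13.19 and 13.46 for Nanog, against 10.11 and 8.12 for Dppa3. Dppa4 lies directly beside Dppa2, and of the 6 nearest measured genes only Nectin3 was above background on more than 1 array. Nectin3, an adhesion molecule, had means of 10.25 in undiff, 10.39 in Static, 10.65 in Spinner and 10.26 in Synthecon, against 6.31 in BM and 6.84 in FL, and Static and dynamic culture differed by -0.07 (0.898). Around Dppa5, Ooep was the only one of the 6 neighbours that passed, and Gsta1, Omt2b, Gsta2 and Cgas were above background on no array.

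Dppa2 and Dppa4 are known in mouse ESCs for their part in switching on cleavage-stage genes, of which 8 of 13 were measured. Probes of these families can read near-identical copies, so each stands for its family. In Static against dynamic culture 1 of 8 was lower, Tdpoz4 (adjusted p = 0.0417), which was above background on no Static or Spinner array and has no bound on its fold, and leaving out 1 replicate gave 0 to 3. Between Spinner and Synthecon, where Dppa4 differed by -0.12 ± 0.36 at its brightest probe, 4 of 8 were lower in Spinner and 0 higher, beside 2.16% of all genes lower and 1.09% higher. Zscan4c, a marker of the transient cleavage-like state of ESCs, read 6.51, 7.00 and 6.87 in Spinner and 9.71 to 11.60 in Synthecon, a difference of -3.90 ± 0.66 (adjusted p = 0.00504). Undiff read 10.60, 8.38 and 10.07, of which the first and the last lay within the Synthecon range. Tcstv3 was at least 3.18-fold higher in Synthecon (0.0317) and Tcstv1 at least 1.22-fold (0.0147), both above background on no Spinner array, and Tdpoz4 (0.0244), on no Spinner array and 4 of 8 Synthecon arrays above background, has no bound on its fold.

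Dppa3 was higher in Spinner than in Synthecon, while these genes were lower in Spinner. In the set of odd Synthecon replicates Zscan4c was the higher, at 11.47 to 11.60 against 9.71 to 9.94 in the even ones, and Dppa3 the lower. Of 15 germline genes 3 were lower in Spinner and 0 higher, with 1 lower without normalization between arrays or without the second Synthecon set and 5 without Static 1. Taf7l, a germ-cell relative of a general transcription factor subunit, was on no Spinner array above background and at least 3.86-fold higher in Synthecon (adjusted p = 0.000225), Dazl was at -2.27 (0.0149) and Mov10l1, a piRNA helicase, at -1.56 (0.00817, above background on 2 of 3 Spinner arrays). Between the Synthecon sets Dazl and Mov10l1 ran against Zscan4c, higher in the even replicates at 11.15 to 11.25 against 10.16 to 10.39 and at no less than 8.55 against no more than 8.29. Tle6, of the maternal complex, was lower in Spinner, at -2.42 (0.000849). Of the pluripotency genes Lin28a alone passed, higher in Spinner by 2.68 (0.0149), and 0 were higher without Spinner 2, Spinner 3 or either Synthecon set. These genes kept their direction on slide 2 (Spinner 3 against Synthecon 1 and 2), at -3.73 for Zscan4c, -2.80 for Taf7l, -2.56 for Dazl, -2.71 for Tle6 and 1.78 for Lin28a. The cleavage-stage count of 4 rests on few samples: it was 0 without the first Synthecon set and 1 to 2 without any 1 Spinner array.

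**Figure D4:**
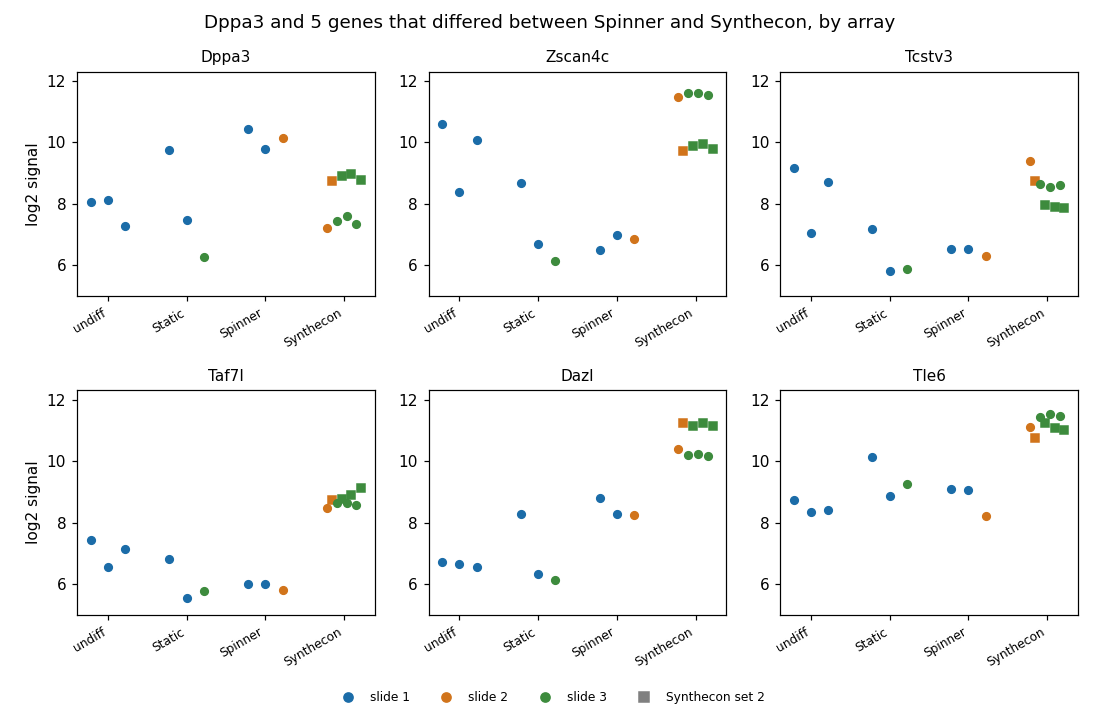
Log2 quantile-normalized signal of Dppa3 and of 5 genes that differed between Spinner and Synthecon, on the undiff and ESC-derived arrays (points coloured by slide, squares for the second set of Synthecon near repeats). Dppa3 is highest in Spinner at 9.79 to 10.43, while Zscan4c, Tcstv3, Taf7l, Dazl and Tle6 are higher in Synthecon than in Spinner, Zscan4c at 9.71 to 11.60.

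Genes with the pattern most like each member were found by Pearson's r between log2 levels of the brightest probes, among 9081 genes above background on every array of at least 1 group. Over all 17 samples, in which the contrast of native with other cells dominates, Ap3b2 (r = 0.958), Nanos3, Mobp and Id4 were among the closest to Dppa3, Igfbp2 (r = 0.994), Cacnb3, Cd276, Rbpms2 and Pdpn to Dppa4, and Sall4 (r = 0.993), Fmr1nb, Pim3, Nanog (r = 0.985) and Pdgfa to Dppa5. Over the 11 undiff and ESC-derived samples alone other genes led. Pou5f1 (r = 0.986), Mrps2, Chchd10, Tigar and Nanog (r = 0.978) were closest to Dppa5, Ifitm1 (r = 0.968), an interferon-induced membrane protein found in primordial germ cells, and Ttc5, Bcas3, Galnt9 and Tmem146 to Dppa3, and Dnaja3 (r = 0.980), Ercc2, Srfbp1, Large2 and Hat1 to Dppa4. Ifitm1 had means of 9.67 in undiff, 9.76 in Static, 11.46 in Spinner and 9.94 in Synthecon, the same order of Spinner over the other 3 as Dppa3.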

How the data were processed

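Levels are log2 signals as deposited: the authors summarised beads in BeadStudio, subtracted background, quantile-normalized and took log2. Linear intensities, background-subtracted by the authors and not normalized between arrays, and detection p-values deposited with the raw signals were read from the same series. A table of the authors' group means, log ratios and test p-values was not used, nor was a second copy of the log2 values. Probes were renamed by transcript accession through RefSeq (GRCm38.p6), which matched 24198 of 25697 (94.2%). A gene is read by its brightest probe.

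One limma model (lmFit, eBayes with trend) with a mean per group was fitted to all probes over 17 samples, each Synthecon set of near repeats averaged, with Benjamini-Hochberg adjustment over all probes. It was tested on simulated data. The labels call the arrays biological replicates, and the study's methods give 3 per group, so the origin of the 8 Synthecon arrays is unknown and p-values measure the spread between these samples. The number of arrays limits the precision. Named genes were all member probes, up to 4 genes per list with the largest called difference between Static and dynamic, the 3 nearest measured genes on each side and the 5 most alike genes; genes between Spinner and Synthecon, and other genes named singly, were chosen after their values were seen. A few genes that the rule names are not reported here. Members and lists were chosen with earlier results of these data known. Alternatives were single Synthecon arrays, fewer groups, normexp with quantile normalization (neqc), log2 of intensity plus 60 without normalization, a filter on dim probes, slide and replicate blocks, t-tests, no trend, other probes and leaving out replicates. Software was R 4.3.3, limma 3.58.1 and, in version 1.17.8, data.table, with Python 3.11.15, pandas 2.3.3, numpy 2.4.6 and matplotlib 3.10.9.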

Additional observations from a re-analysis of the deposited data

Results flagged for a closer look

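Of 96 list genes, 6 lay on opposite sides of undiff in Spinner and in Synthecon and also differed between these 2 cultures by limma. The difference of Spinner from Synthecon was -3.90 for Zscan4c, -2.80 for Taf7l, -2.01 for Tcstv3, -0.96 for Tcstv1, -0.96 for Tdpoz4 and 2.10 for Fgf5, a growth factor of the primed epiblast. Taf7l, Tcstv3, Tcstv1 and Tdpoz4 were above background on no Spinner array, so that these differences were read against background, and the bounds were at least 3.86-fold, 3.18-fold and 1.22-fold with none for Tdpoz4. Undiff was above background on no array for Tdpoz4 and on 1 of 3 for Tcstv1, so for these the side of Spinner lay among background readings. Fgf5 was above background on 3 of 8 Synthecon arrays, with a bound of at least 3.03-fold. Against undiff, Zscan4c was at -2.89 in Spinner and 1.00 in Synthecon, Tcstv3 at -1.86 and 0.15, and Fgf5 at 1.48 and -0.62. For Zscan4c and Tcstv3 the side of Synthecon lay within the spread of undiff (SD 1.16 and 1.11, n = 3), with arrays that overlapped. The arrays of Synthecon and undiff overlapped for Tcstv1, Tdpoz4 and Fgf5 too. All 6 kept their sign with slide as a block, where Tdpoz4 no longer passed (adjusted p = 0.0753). Undiff and Synthecon share no slide. Of 40 Synthecon groups of values tested for a sample far from the others, 0 held one.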

How the results depend on the processing

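Static against dynamic, 14 pluripotency genes were called, and 10 to 18 under the other models, 0 by the methods' t-tests (14 and 3 at an unadjusted p under 0.05 with equal and unequal variances) and 9 to 19 leaving out a replicate. Static against undiff, 11 became 0 with only these groups in the fit (12 unadjusted), 0 by both t-tests (2 and 0 unadjusted) and 3 to 16 leaving out a replicate. Dynamic against undiff, 3 became 9 with only these groups, 6 without normalization, 1 and 0 by the t-tests (5 unadjusted in each) and 1 to 7 leaving out a replicate. Against native cells 18 to 20 of 20 were called throughout, with Nr0b1 and Prdm14, read at background, among the 20. Between Spinner and Synthecon the 4 cleavage-stage genes (5 unadjusted) became 2 without normalization, 2 with the filter on dim probes (12061 probes kept) and 0 to 4 leaving out a replicate. These last alternatives and the values within slides were chosen after seeing the data.

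With a replicate block the counts were 17, 11, 4, 19 and 4. Same-numbered samples did not deviate together (13 of 45 pairs with r over 0.1, range -0.134 to 0.265), so the numbers do not pair the samples.

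The difference of Static from dynamic ran, leaving out a replicate, from -2.24 to -0.51 for Dppa3, -1.70 to -0.78 for Dppa4 and -2.92 to -1.18 for Dppa5. It was -0.79 at the dimmest probe of Dppa4, and for Dppa5 -1.17 within slide 1 and -3.62 within slide 3. Dppa4 changed sign for dynamic against undiff (-0.17 without normalization, -0.12 at the dimmest probe) and for Synthecon against undiff (-0.56 and -0.64). The causes were not tested. Dppa3 changed sign for Synthecon against undiff (0.30, but -0.72 without normalization, -0.02 with a replicate block and -0.42 without the second Synthecon set). With all replicates in, 11 values of the members changed sign, these 4 of Dppa4, the first 2 of Dppa3 and 5 of differences of 0.22 or less in size, and 123 moved by less than the spread between replicates. No list gene called in the text changed sign under another scaling.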
